A study of Mus musculus with 9 samples.

Results

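The guanylate-binding proteins examined here are 8 mouse genes, Gbp2, Gbp3, Gbp4, Gbp5, Gbp6, Gbp7, Gbp8 and Gbp9. They were chosen by symbol, each symbol matched 1 row of the deposited expression tables through its Ensembl identifier, and they make up 8 of 55655 rows. Guanylate-binding proteins are large GTPases of the dynamin superfamily that macrophages make in response to interferons, above all IFN-γ, through the receptor-associated kinases JAK1 and JAK2 and transcription factors that include IRF1. They assemble on the membranes of pathogen-containing vacuoles and on cytosolic bacteria, together with a second family of interferon-inducible GTPases, the immunity-related GTPases, and they promote inflammasome activation through caspase-11 and other sensors. Because classically activated macrophages are made with IFN-γ, these genes are widely read as markers of that state.

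The study asked how photobiomodulation (PBM), an irradiation of cells with low-power near-infrared laser light, affects inflammatory macrophages. The cells were bone marrow-derived macrophages, grown from the femurs and tibias of wild type C57BL/6 mice aged 6 to 8 weeks, with 7 days in macrophage colony-stimulating factor at 10 ng/mL. The M0 group was these macrophages without further induction. The M1 group received lipopolysaccharide at 100 ng/mL with IFN-γ at 20 ng/mL, with an induction of 12 hours, and was kept from light. The M1 + PBM group received the same lipopolysaccharide and IFN-γ, and was also irradiated at 6 mW/cm2 for 7 minutes, a treatment given every 12 hours. Each group had 3 RNA-seq libraries, 9 in all, and no group carried a genetic modification. The study describes its experiments as independently repeated, while the labels do not tie the 3 libraries of a group to separate cultures or animals, so p-values measure the spread between these libraries, which may in part be technical.

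Values are FPKM, fragment counts scaled by transcript length and by the mapped fragments of the library, so levels can be set side by side between genes of different length. The M1 and M1 + PBM libraries stood in 1 table and the M0 libraries in another, so M0 levels are set beside the others without a test. The depth of the libraries is unknown, and estimates from the smallest FPKM steps lay between 30880000 and 42220000 fragments a library. Macrophage marker genes summed to 5263 to 8223 FPKM in M1 and 5472 to 7112 in M1 + PBM, against 6721 to 10140 in M0. M0 replicate 3 stood apart, with stromal marker genes summing to 173 FPKM against 6.23 and 5.13 in M0 replicates 1 and 2, led by the collagen gene Col1a1 at 123 FPKM. Liver markers summed to 16.8 FPKM in M1 replicate 2 and to 1.44 to 3.61 in the other M1 and M1 + PBM libraries, and its part in the values below was not tested. Neutrophil markers summed to 8.93 to 28.1 FPKM in M1 and 6.44 to 15.0 in M1 + PBM, with 2 of the 6 markers, S100a9 and Ly6g, listed at 0 in every library, and their part in the Gbp values was not tested. In bulk RNA, fewer cells expressing a gene and less of its RNA per cell cannot be told apart.

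The genes lie in 2 groups on the mouse genome. By the RefSeq annotation of GRCm38.p6, Gbp5, Gbp7, Gbp3, Gbp2b and Gbp2 follow each other on chromosome 3, and Gbp8, Gbp9, Gbp4, Gbp10, Gbp6 and Gbp11 on chromosome 5. Promoter windows of 250 bases before the start were at hand in RefSeq for 4 of the 8 members, Gbp2, Gbp3, Gbp5 and Gbp7. They are printed 5′ to 3′ because these 4 genes stood among the most abundant of the family in M1 macrophages. Capitals mark matches, searched on both strands, to GAAA followed after any 2 bases by a further GAAA, the repeat found in interferon-stimulated response elements that interferon regulatory factors bind, and to TTCNNNGAA, the inverted repeat found in gamma-activated sites. A match to this repeat on the opposite strand reads as TTTC, 2 bases and TTTC in the printed run.
Gbp2, chr3:142620413-142620662, + strand: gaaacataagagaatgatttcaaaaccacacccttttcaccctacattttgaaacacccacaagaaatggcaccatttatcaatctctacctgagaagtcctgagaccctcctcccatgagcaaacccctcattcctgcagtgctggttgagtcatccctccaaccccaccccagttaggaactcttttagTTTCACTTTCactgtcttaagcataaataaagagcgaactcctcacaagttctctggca
Gbp5, chr3:142496684-142496933, + strand: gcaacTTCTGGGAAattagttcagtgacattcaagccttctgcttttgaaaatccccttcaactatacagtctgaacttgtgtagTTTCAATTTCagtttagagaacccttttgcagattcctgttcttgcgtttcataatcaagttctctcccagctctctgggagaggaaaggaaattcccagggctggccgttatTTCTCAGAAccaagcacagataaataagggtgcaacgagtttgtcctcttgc
Gbp7, chr3:142530086-142530335, + strand: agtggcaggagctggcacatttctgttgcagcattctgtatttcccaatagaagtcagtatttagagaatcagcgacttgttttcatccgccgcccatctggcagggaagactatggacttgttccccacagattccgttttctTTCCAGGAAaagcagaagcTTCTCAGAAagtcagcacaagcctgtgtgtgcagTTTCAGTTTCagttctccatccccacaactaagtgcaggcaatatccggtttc
Gbp3, chr3:142559794-142560043, + strand: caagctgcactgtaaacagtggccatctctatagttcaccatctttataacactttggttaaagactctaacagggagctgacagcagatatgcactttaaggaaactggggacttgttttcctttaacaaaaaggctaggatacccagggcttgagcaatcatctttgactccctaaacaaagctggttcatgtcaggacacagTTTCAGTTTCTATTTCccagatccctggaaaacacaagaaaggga

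Each of the 4 printed windows held the GAAA repeat on the opposite strand, a motif present in 2.98% of 32851 RefSeq promoter windows of this length. The match lay 59 to 50 bases before the start of Gbp2, 53 to 44 bases before that of Gbp7 and 165 to 156 bases before that of Gbp5. Gbp3 held 2 overlapping matches, at 45 to 36 and 39 to 30 bases before its start, and the window of a second annotated Gbp3 start held none. TTCNNNGAA was found in Gbp5, at 245 to 237 and 52 to 44 bases before the start, and in Gbp7, at 106 to 98 and 87 to 79 bases, against 7.02% of all windows. Windows holding both motifs, as those of Gbp5 and Gbp7 did, made up 0.332% of the 32851. These matches describe letters in a window and were not tied to any binding measured here.

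All 8 genes were higher in every M1 library than in every M0 library, and Gbp2 was the most abundant of them. A background was taken from the 13915 rows with an FPKM of 1 or more in 3 or more of the 9 libraries. Of these, 15.6% were higher in M1 than in M0 without overlap, against 8 of 8 members. Likewise 15.9% were higher in M1 + PBM than in M0 without overlap, again against 8 of 8 members. Gbp3, Gbp4, Gbp5, Gbp6, Gbp7 and Gbp8 did not pass this filter on their M0 libraries alone. They entered through the groups in which they were high, so these shares and the ranks below are descriptive only. On the log2(FPKM + 1) scale the median difference of M1 and M0 was 5.19 over the members and -0.34 over all 13915 rows. The median difference of M1 + PBM and M0 was 4.98 over the members and -0.27 over all rows. These differences cross tables for which no joint normalisation is stated and carry no test, and M0 macrophages also differed from the others in having no 12-hour induction.

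Gbp2 (ENSMUSG00000028270), a GTPase that coats Toxoplasma vacuoles and bacteria, stood at 3.96, 2.26 and 17.5 FPKM in M0 replicates 1, 2 and 3. In M1 it stood at 633, 863 and 700.1 FPKM. Its mean in M1, 732 ± 118 FPKM (SD, n = 3), placed it 37th of the 13915 rows, and its log2 difference from M0 of 6.77 placed it 16th. Gbp5 (ENSMUSG00000105504), known for promoting NLRP3 inflammasome assembly, was listed at 0.301, 0.143 and 2.46 FPKM in M0 and at 139.5, 196 and 152 FPKM in M1. The log2 difference was 6.55, the 23rd largest. Gbp3 (ENSMUSG00000028268), a neighbour of Gbp2 on chromosome 3, stood at 1.65, 0.953 and 5.79 FPKM in M0 and at 158, 209.5 and 193 FPKM in M1, a log2 difference of 5.83. For these 3 genes the lowest M1 library was far above the highest M0 library, and in each the highest M0 library was replicate 3.

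Gbp7 (ENSMUSG00000040253), which has been linked to the NADPH oxidase and to autophagy, stood at 0.932, 0.619 and 3.78 FPKM in M0 and at 78.3, 90.8 and 82.9 FPKM in M1, a log2 difference of 5.11. Gbp6 (ENSMUSG00000104713) stood at 0.183, 0.121 and 1.68 FPKM in M0 and at 59.6, 62.2 and 52.8 FPKM in M1, a log2 difference of 5.28. Both genes thus rested near or below 1 FPKM in M0 replicates 1 and 2. Reads of Gbp6 are uncertain, because 44.2% of the 100-base windows of its GENCODE M21 transcripts also occur in those of Gbp10, so the counting could split them between these 2 genes. The same share with any other Gbp gene was 0.435% for Gbp7, 0.929% for Gbp3, and 0 for Gbp2 and Gbp5.

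Gbp9 (ENSMUSG00000029298) had the highest level of the chromosome 5 members in M0, at 2.63, 2.95 and 5.66 FPKM, and stood at 30.4, 34.8 and 54.2 FPKM in M1, a log2 difference of 3.12. Gbp4 (ENSMUSG00000079363) was close to absent in M0, at 0.027, 0.022 and 0.182 FPKM, and stood at 13.6, 15.9 and 23.7 FPKM in M1, a log2 difference of 4.09. Its M0 values rested on an estimated 3.4 to 28.7 fragments a library, so its fold over M0 is poorly determined. The order of these differences depends on the pseudocount, since with 0.1 in place of 1 the difference was 6.73 for Gbp4, 8.00 for Gbp5, 6.92 for Gbp6 and 1.36 for Gbp8, against 7.04 for Gbp2. Gbp8 (ENSMUSG00000034438) moved least, from 0.496, 0.512 and 1.22 FPKM in M0 to 1.60, 2.48 and 1.76 FPKM in M1, a log2 difference of 0.77. The Gbp8 values rested on an estimated 37.6 to 104.0 fragments in M0 and 135.8 to 222.8 in M1. Its log2 difference placed it 1450th of 13915 rows, whereas the other 7 members lay between 16th and 208th.

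**Figure D1:**
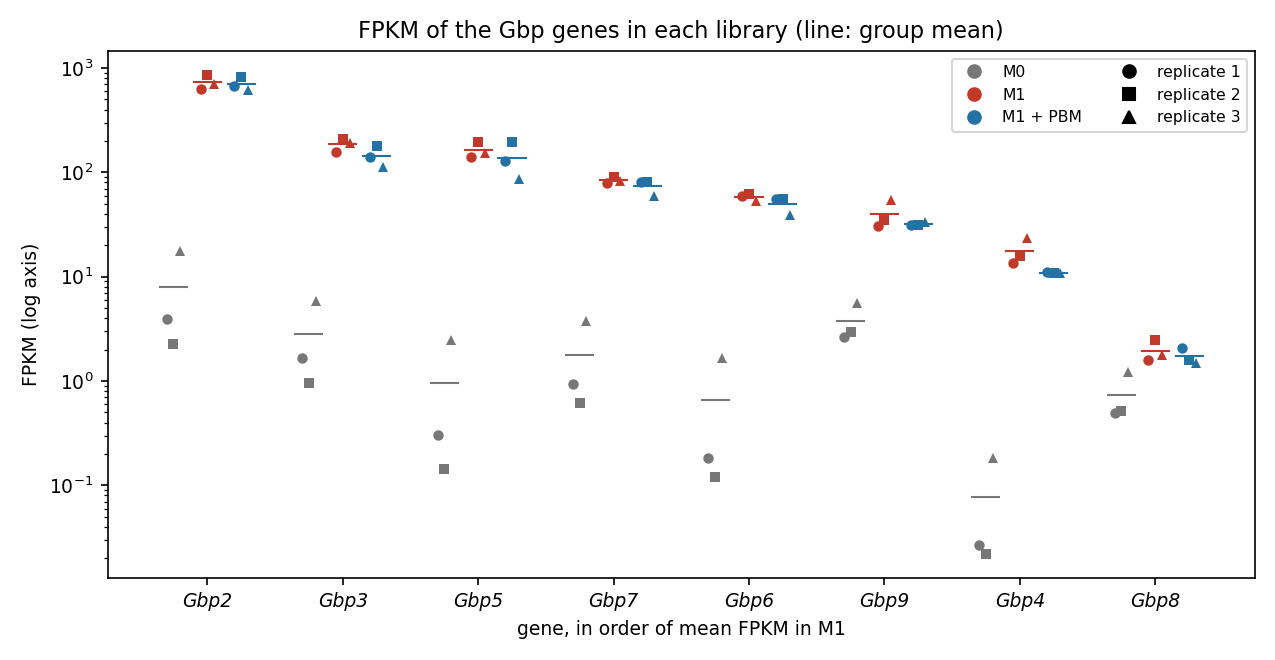
FPKM of the 8 Gbp genes (log axis) in each of the 9 libraries, ordered by mean FPKM in M1; colours mark the groups, symbols the replicate number and lines the group means. All M1 and M1 + PBM points lie above the M0 points of the same gene, the highest M0 point is replicate 3 for each gene, and the M1 and M1 + PBM points of 7 of the 8 genes overlap, Gbp4 being the exception.

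Ordered by mean FPKM in M1, the members ran Gbp2, Gbp3, Gbp5, Gbp7, Gbp6, Gbp9, Gbp4 and Gbp8. Neighbours whose M1 libraries overlapped were Gbp3 with Gbp5, and Gbp6 with Gbp9, whose libraries met at 52.8 and 54.2 FPKM. The other neighbours did not overlap in M1. The 8 genes summed to 1115, 1475 and 1261 FPKM in M1 and to 10.2, 7.57 and 38.2 FPKM in M0. Gbp2 alone made up 55.5% to 58.5% of that sum in M1 and 29.8% to 45.7% in M0.

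M0 replicate 3 carried more of every member than the other M0 libraries. Its FPKM over the mean of M0 replicates 1 and 2 ran from 2.03 for Gbp9 to 11.1 for Gbp5, and it was the highest M0 library for 8 of 8 members, against 39.0% of the 13915 rows. The median log2 excess of this library was 1.33 over the members and -0.0008 over all rows. Irf1, the gene of an interferon-induced transcription factor, was also highest there, at 10.8, 10.9 and 25.6 FPKM, and was picked with its values in view. Other interferon regulatory factor genes differed in direction. Irf9 was highest in M0 replicate 3, at 5.06, 5.22 and 9.75 FPKM. Irf2, at 9.54, 8.98 and 8.21 FPKM, and Irf8, at 15.2, 27.6 and 10.8 FPKM, were lowest in M0 replicate 3. The stromal marker sum given above was raised in the same library, and its part in the Gbp values was not tested. Without M0 replicate 3 the median difference of M1 and M0 over the members was 5.63. Leaving out a library cannot create an overlap, so the lack of overlap was not tested by this.

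With irradiation, the 8 Gbp genes had modestly lower means, and 7 of the 8 overlapped with M1. M1 + PBM was compared with M1 in limma, a linear model that moderates each gene's variance, over the rows with an FPKM of 1 or more in 3 or more of the 6 libraries, a filter that all 8 members passed. The mean of each of the 8 genes was lower in M1 + PBM than in M1, by a median of -0.25 on the log2(FPKM + 1) scale against 0.058 over the 12238 rows tested, of which 34.4% had a lower mean. None of the 8 passed limma at a Benjamini-Hochberg adjusted p of 0.05, where 1 row of 12238, 0.00817%, did, an assembled transcript of a locus without a gene name. None passed an unadjusted p of 0.05 together with a 2-fold change either, as 32 rows did, 0.261%. At an unadjusted p of 0.05 alone, 1 member, Gbp4, was lower, against 1.45% of rows, and no member was higher, against 2.99% of rows. Gbp4 was also the single member whose M1 + PBM libraries all lay below its M1 libraries, against 2.52% of rows, and no member lay above without overlap, against 8.51% of rows. With 3 libraries against 3, an exact two-sided permutation test cannot give less than 0.1.

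Gbp4 was 13.6, 15.9 and 23.7 FPKM in M1 and 11.1, 10.8 and 10.9 FPKM in M1 + PBM, means of 17.7 ± 5.29 and 10.9 ± 0.151 FPKM (SD, n = 3). Every M1 + PBM library lay below every M1 library, and the spread was wide in M1 and narrow in M1 + PBM. The log2 fold change was -0.62 (SE 0.20, 95% interval -1.09 to -0.15), with an unadjusted limma p of 0.0178, an adjusted limma p of 0.90 and an exact permutation p of 0.1. Its unadjusted p stayed under 0.05 in 13 of 13 alternative analyses, where the fold change ran from -0.78 to -0.40. The value of -0.40 came without M1 replicate 3, the library in which Gbp4 was highest. An estimated 1742.7 to 3370.3 fragments a library lay behind these values.

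Gbp3 was 158, 209.5 and 193 FPKM in M1 and 141, 181 and 113 FPKM in M1 + PBM, means of 187 ± 26.1 and 145 ± 34.1 FPKM (SD, n = 3). The groups overlapped, since M1 + PBM replicate 2 lay above M1 replicate 1. The log2 fold change was -0.38 (SE 0.20, 95% interval -0.86 to 0.097), with an unadjusted limma p of 0.10, an adjusted limma p of 0.90 and an exact permutation p of 0.2. With replicate number as a block, the unadjusted limma p of Gbp3 was 0.0467, so that 2 members, Gbp3 and Gbp4, were lower at that threshold, against 3.24% of rows under the same block.

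Gbp2 was 633, 863 and 700.1 FPKM in M1 and 677, 825 and 611 FPKM in M1 + PBM. Means were 732 ± 118 and 704 ± 109.9 FPKM (SD, n = 3), and the ranges nearly coincided. The log2 fold change was -0.055 (SE 0.17, 95% interval -0.47 to 0.36), with an unadjusted limma p of 0.76 and an adjusted limma p of 0.96. Its direction was not stable, since quantile normalisation gave 0.17, leaving out M1 replicate 2 gave 0.069 and leaving out M1 + PBM replicate 3 gave 0.042.

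Gbp5 was 139.5, 196 and 152 FPKM in M1 and 129, 197 and 86.3 FPKM in M1 + PBM, a log2 fold change of -0.31 (SE 0.30, 95% interval -1.04 to 0.42). Its irradiated libraries lay far apart, with replicate 2 at the M1 level and replicate 3 lowest, and without replicate 3 of M1 + PBM its fold change was -0.018. Gbp7 was 78.3, 90.8 and 82.9 FPKM in M1 and 80.8, 80.1 and 60.0 FPKM in M1 + PBM, a log2 fold change of -0.20 (SE 0.15, 95% interval -0.55 to 0.16). Gbp6 was 59.6, 62.2 and 52.8 FPKM in M1 and 55.9, 55.9 and 38.7 FPKM in M1 + PBM, a log2 fold change of -0.23 (SE 0.17, 95% interval -0.64 to 0.18). In all 3 genes M1 + PBM replicate 3 was the lowest of the 6 libraries and the other irradiated libraries lay at or near the M1 range. Without that library the fold changes of Gbp6 and Gbp7 were -0.055 and -0.058.

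Gbp9 was 30.4, 34.8 and 54.2 FPKM in M1 and 31.3, 31.1 and 33.5 FPKM in M1 + PBM, a log2 fold change of -0.27 (SE 0.21, 95% interval -0.78 to 0.24). As with Gbp4, M1 replicate 3 was the highest library, and without it the fold change of Gbp9 was -0.028. Gbp8 was 1.60, 2.48 and 1.76 FPKM in M1 and 2.09, 1.61 and 1.48 FPKM in M1 + PBM, a log2 fold change of -0.11 (SE 0.15, 95% interval -0.47 to 0.25), which was 0.019 without M1 replicate 2. For Gbp5, Gbp6, Gbp7, Gbp8 and Gbp9 the groups overlapped, the unadjusted limma p lay between 0.222 and 0.497 and the exact permutation p between 0.3 and 0.6. A p above the threshold does not show that a gene was equal in both groups, and the intervals of Gbp3 and Gbp5 reach changes of -0.86 and -1.04.

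**Figure D2:**
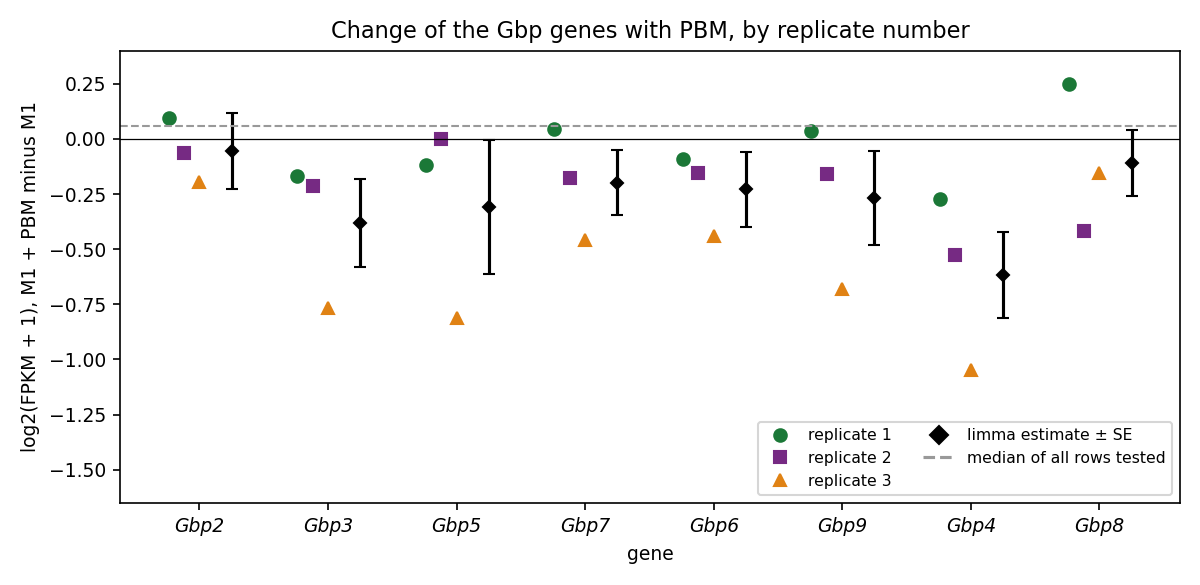
Difference of log2(FPKM + 1) between the M1 + PBM and M1 libraries of the same replicate number for each Gbp gene, with the limma estimate and its standard error in black; the dashed line is the median of all rows tested, 0.058. Replicate 3 gives the lowest point in 7 of the 8 genes, Gbp8 being the exception.

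The lower means rested unequally on the replicates. Between libraries of the same number, 4 of 8 members were lower with irradiation in replicate 1, 7 of 8 in replicate 2 and 8 of 8 in replicate 3, where 43.6%, 45.4% and 31.9% of all rows tested were lower. The median difference over the members was -0.028, -0.17 and -0.57 in replicates 1, 2 and 3, and that over all rows was 0.032, 0.013 and 0.13. In replicate 3 the differences of Gbp4, Gbp5 and Gbp3 were -1.05, -0.81 and -0.77, and that of Gbp2 was -0.20. Without M1 + PBM replicate 3 the median fold change of the members was -0.057. Without M1 + PBM replicate 2, 3 members had an unadjusted limma p under 0.05, namely Gbp4 at a fold change of -0.61, Gbp5 at -0.61 and Gbp3 at -0.55, where 2.41% of all rows were lower at that threshold.

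**Figure D3:**
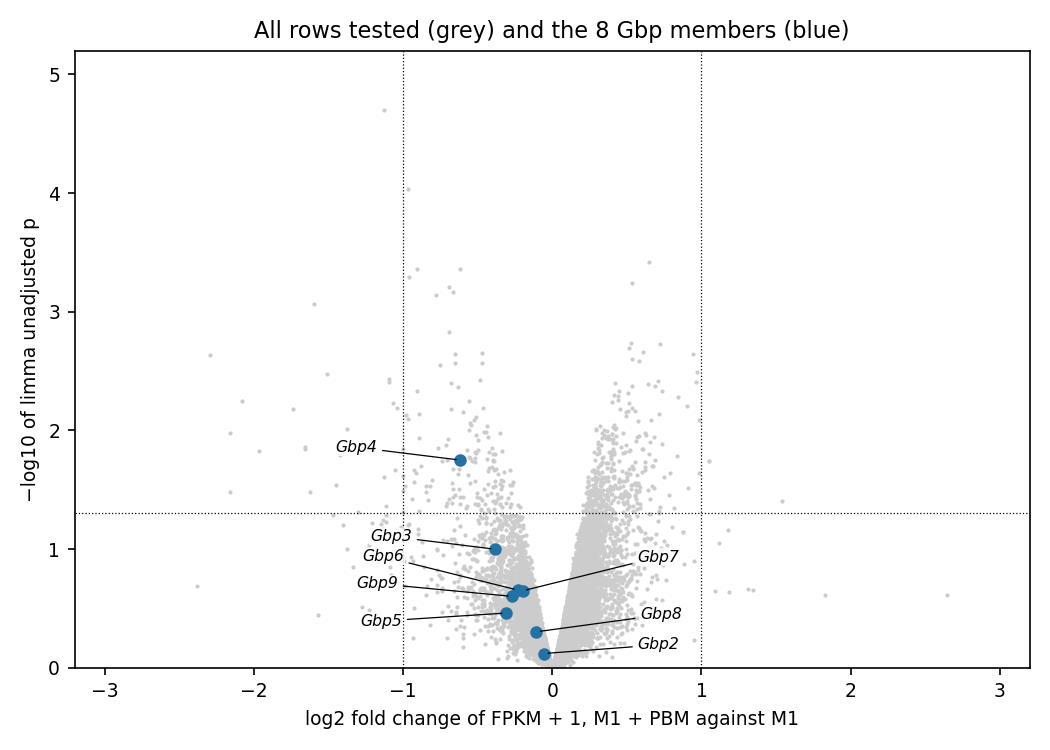
Log2 fold change of FPKM + 1 in M1 + PBM against M1 (horizontal axis) and the negative log10 of the unadjusted limma p (vertical axis) for the rows tested, with the 8 Gbp genes in blue; dotted lines mark a p of 0.05 and a 2-fold change, and 1 row lies outside the axes. All 8 genes lie left of 0, inside the 2-fold lines, with Gbp4 alone above the p line.

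Another scaling of the libraries moved the whole distribution. At an unadjusted p of 0.05, 177 rows were lower and 366 higher in FPKM, 283 lower and 237 higher after median-of-ratios scaling, and 254 lower and 260 higher after quantile normalisation. Of the 8 members, 8 had a lower mean after median-of-ratios scaling and 7 after quantile normalisation, Gbp2 being the exception. Among all rows tested, 51.45% and 45.33% had a lower mean under these scalings, against 34.42% in FPKM. The median of the members was -0.33 and -0.24 under these scalings, against -0.0053 and 0.015 over all rows.

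A ratio between genes within a library does not depend on a scaling by 1 factor per library. Quantile normalisation can change it, and the ratios below were taken from FPKM. Gbp3 was 25%, 24.3% and 27.5% of Gbp2 in M1 and 20.8%, 21.9% and 18.5% in M1 + PBM, without overlap, a log2 difference of -0.33. Gbp4 was 2.14%, 1.84% and 3.38% of Gbp2 in M1 and 1.63%, 1.30% and 1.79% in M1 + PBM, also without overlap, a log2 difference of -0.60. In each, the exact two-sided permutation p was 0.1, the smallest possible, and 0.35 after Benjamini-Hochberg adjustment over the 7 ratios. The other 5 ratios overlapped, with exact permutation p between 0.3 and 0.7. No ratio to Gbp2 was taken for rows outside the family. How often such a ratio lacks overlap over all rows is therefore unknown, and these 2 cannot be set against it. The family sum was 1127, 1382 and 954 FPKM in M1 + PBM, within or below the M1 range given above. Gbp2 made up 60.0%, 59.7% and 64.0% of it, above the 55.5% to 58.5% in M1. This share follows from the same ratios to Gbp2, was not tested and was not set against other rows.

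Of the 3 Gbp genes outside the 8, all lay below Gbp4 in mean M1 level. Gbp10 and Gbp11, at means of 15.1 and 5.60 FPKM, lay above Gbp8 at 1.95 FPKM. RefSeq lists Gbp11 as a transcribed pseudogene. Gbp10 (ENSMUSG00000105096), which shares much of its sequence with Gbp6, stood at 15.3, 16.0 and 14 FPKM in M1 and 13.5, 14.5 and 5.82 in M1 + PBM, a log2 fold change of -0.48 (SE 0.31) with an unadjusted limma p of 0.172. Gbp11 (ENSMUSG00000092021) stood at 5.48, 8.55 and 2.78 FPKM in M1 and 3.96, 4.64 and 1.39 in M1 + PBM, a log2 fold change of -0.60 (SE 0.44) with an unadjusted limma p of 0.214. Both overlapped between the groups, and both were lowest in M1 + PBM replicate 3. Between libraries of the same number Gbp11 was lower in all 3, by log2 differences of -0.39, -0.76 and -0.66, and with replicate number as a block its unadjusted limma p was 0.00296. Without M1 + PBM replicate 3 its fold change was -0.22, and without M1 replicate 3 it was -0.96. The fold change of Gbp10 was -0.10 without M1 + PBM replicate 3. Gbp2b (ENSMUSG00000040264) was listed at 0 in the M0 libraries, and reached 0.290 to 0.515 FPKM in M1 and 0.156 to 0.412 in M1 + PBM, too low to be tested.

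The pathway that induces these genes was read from a list of 17 genes of interferon ligands, receptors, kinases, transcription factors and inhibitors, of which 15 were tested and the ligand genes Ifnb1 and Ifng were too low. With irradiation 1 of the 15 was lower, against 1.45% of rows, and 1 was higher, against 2.99% of rows, at an unadjusted limma p of 0.05, none passed after adjustment, and the median fold change was -0.022 against 0.058 over all rows. Socs1, an inhibitor of JAK kinases that interferon itself induces, was 16.3, 12.7 and 13.3 FPKM in M1 and 7.15, 8.78 and 7.40 FPKM in M1 + PBM. The groups did not overlap, with means of 14.1 ± 1.92 and 7.78 ± 0.876 FPKM (SD, n = 3) and a log2 fold change of -0.78 (SE 0.13, unadjusted limma p 0.000727, adjusted 0.81). Ifngr1, the ligand-binding chain of the IFN-γ receptor, was 8.73, 7.42 and 7.57 FPKM in M1 and 12.4, 10.8 and 13.9 FPKM in M1 + PBM, a log2 fold change of 0.58 (SE 0.12, unadjusted limma p 0.00257, adjusted 0.90). It too did not overlap, and its M0 libraries were higher still, at 19.9, 22.4 and 25.3 FPKM.

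Ptpn2, a phosphatase that acts on JAK kinases, was 6.79, 7.37 and 7.49 FPKM in M1 and 5.97, 6.83 and 4.50 in M1 + PBM, a log2 fold change of -0.29 (SE 0.14, unadjusted limma p 0.0839). Its unadjusted limma p was 0.0291 without M1 + PBM replicate 2. Irf1 had a log2 fold change of -0.10 and did not pass the test. It was 0.13 without M1 replicate 2 and -0.38, with an unadjusted limma p of 0.0421, without M1 replicate 3.

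The second list held 22 genes that act beside the Gbp proteins, namely immunity-related GTPases, inflammasome components and the ubiquitin-like conjugation genes of autophagy that place these GTPases on vacuoles. All 22 were tested and none passed an unadjusted limma p of 0.05. Of them, 15 had a lower and 7 a higher mean, with a median fold change of -0.063 against 0.058 over all rows. Without overlap, 1 was lower, Casp4, against 2.52% of rows, and 2 were higher, Atg5 and Gabarapl2, against 8.51% of rows. Ifi47, the immunity-related GTPase Irgd, was 115, 130.4 and 62.5 FPKM in M1 and 62.4, 65.9 and 60.1 FPKM in M1 + PBM, a log2 fold change of -0.64 (SE 0.27, unadjusted limma p 0.0541). M1 replicate 3 lay among the irradiated libraries. The unadjusted limma p of Ifi47 was 0.0241 after median-of-ratios scaling, 0.0272 with replicate number as a block and 0.000187 without M1 replicate 3, and it lay above 0.05 in the other 10 of 13 alternatives, up to 0.159 without M1 replicate 2. Nlrp3, the inflammasome sensor, was 32.9, 35.6 and 34.9 FPKM in M1 and 21.0, 36.4 and 14.4 FPKM in M1 + PBM, a log2 fold change of -0.61 (SE 0.31, unadjusted limma p 0.0914). Without M1 + PBM replicate 2 it was -0.95, with an unadjusted limma p of 0.00219, and without M1 + PBM replicate 3 it was -0.31, with an unadjusted limma p of 0.246. Atg5, an autophagy conjugation gene, was 14, 14.7 and 10.1 FPKM in M1 and 16.8, 15.4 and 14.7 FPKM in M1 + PBM, a log2 fold change of 0.27 (SE 0.15, unadjusted limma p 0.125).

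**Figure D4:**
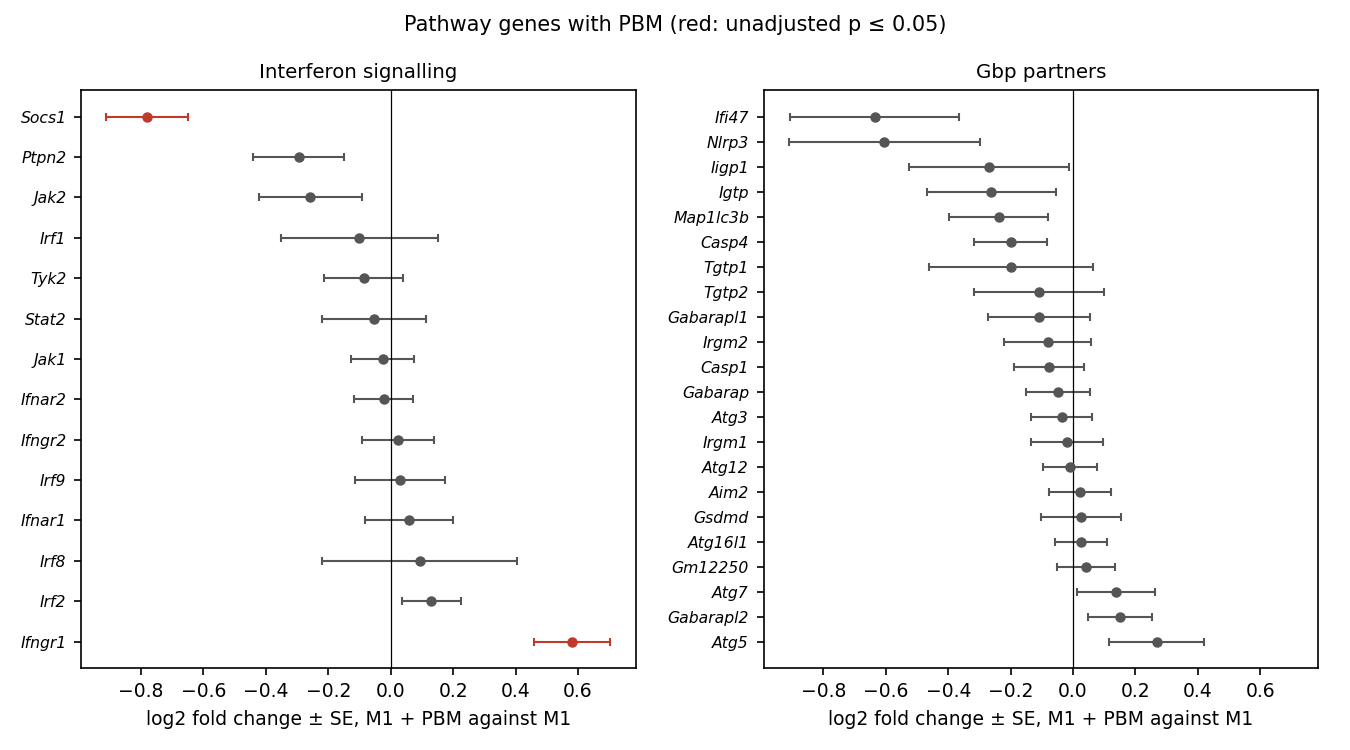
Log2 fold change of FPKM + 1 in M1 + PBM against M1, with its standard error from limma, for the tested genes of the interferon signalling list (left, 14 of the 15 genes) and of the list of Gbp partners (right, 22 genes); red marks an unadjusted p of 0.05 or less. Socs1, at -0.78, and Ifngr1, at 0.58, are the red points, and the partner list has none.

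Genes outside the family with the nearest profiles over the 9 libraries were found by Euclidean distance between centred log2(FPKM + 1) values and the median profile of the members. They were Ifi213, Trim30c, Ifi44, Ifi211 and Phf11b, at distances of 0.733 to 1.04. Among the members themselves, Gbp7 lay nearest to the median profile, at 0.214, followed by Gbp6 at 0.272 and Gbp3 at 0.876. Gbp5 at 1.94, Gbp4 at 2.21, Gbp2 at 2.48, Gbp9 at 3.11 and Gbp8 at 6.24 all lay farther from it than those outside genes. The 5 genes had log2 differences of M1 and M0 between 4.92 and 5.62, and fold changes with irradiation between -0.45 for Trim30c and -0.021 for Ifi44, none with an unadjusted limma p of 0.05 or less. That of Trim30c was 0.0261 with replicate number as a block and 0.0205 without M1 + PBM replicate 2. Each was higher in M0 replicate 3 than in the mean of the other M0 libraries, by 3.85 times for Phf11b to 98.8 times for Ifi44. Because the 5 genes were picked on these same 9 libraries, their likeness to the members follows from the choice. This holds for the step from M0 to M1 and for the excess in M0 replicate 3. The M1 + PBM libraries also entered the distance, so the fold changes with irradiation are not independent of the choice either.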

How the data were processed

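RNA-seq of 9 libraries was read from the FPKM values the authors deposited in 2 tables, 1 for M1 and M1 + PBM and 1 for M0. The study's methods describe FPKM per gene from Cufflinks, and the submitters' processing notes name Bowtie 0.12.2 and mm9 with no role. Since row identifiers came from a later annotation, the build behind the tables is unsettled, and positions are those of RefSeq and not of the counted features. The annotation and read length are not given in the sources used here. Of 55655 rows, 55154 were paired with a symbol and 320 were assembled transcripts of unnamed loci. Between 25.9% and 27.3% of low values came out as whole fragments (tolerance 0.05), so no reads were recovered and the depth is a rough estimate. Fragments of a gene used this depth and its longest coding transcript, so they are upper values only if the depth holds.

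M1 + PBM was compared with M1 in limma 3.58.1 (R 4.3.3, empirical Bayes with a trend) on log2(FPKM + 1), over 12238 rows with an FPKM of 1 or more in 3 or more of 6 libraries, with Benjamini-Hochberg adjustment over all of them. A log2 fold change on this scale understates the change of low genes. Single values were compared by exact two-sided permutation. Same-numbered M1 and M1 + PBM libraries deviated together over rows (r = 0.157, 0.469 and 0.462 in replicates 1 to 3, different numbers -0.491 to 0.0328). Deviations from a group mean cancel out, so positive values for the same number bring negative ones for different numbers. The main fit and its p-values used no pairing. Replicate number served as a block in an alternative fit and for differences by number, from these values and not from the labels. The alternatives tried were median-of-ratios scaling, a pseudocount of 0.1, a filter at a mean FPKM of 5 or more, no filter, quantile normalisation, no trend, a replicate block, and each library left out.

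The members and lists were chosen with earlier results of these data known. Named genes were the 8 members, the other Gbp genes, the 3 genes with the lowest unadjusted p in each list with any at 0.05 or less, and the 5 nearest profiles. Irf1 was added with its values in view, and Irf2, Irf8 and Irf9 were added beside it. Casp4 and Gabarapl2 were added for their lack of overlap. One item is not reported here. The symbols Irgd and Irgb10 were matched as Ifi47 and Gm12250. Promoter windows came from RefSeq (GRCm38.p6), shared sequence from GENCODE M21 transcripts. T and NK cell markers summed to 1.04 to 6.09 FPKM, those of dendritic cells to at most 1.1, B cells 0.491 and erythroid cells 0.249.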

Additional observations from a re-analysis of the deposited data

How the results depend on the processing

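All 8 members kept their M1 libraries above their M0 libraries after median-of-ratios scaling. Another pseudocount or a library left out cannot create an overlap, so those settings could not test this. Gbp3, Gbp4, Gbp5, Gbp6, Gbp7 and Gbp9 had a fold change below 0 with PBM in 13 of 13 alternatives. With 1 library left out it came as near to 0 as -0.22 for Gbp3, -0.40 for Gbp4, -0.018 for Gbp5, -0.055 for Gbp6, -0.058 for Gbp7 and -0.028 for Gbp9. Gbp2 turned higher after quantile normalisation (0.17), and also when M1 replicate 2 (0.069) or M1 + PBM replicate 3 (0.042) was left out, and Gbp8 without M1 replicate 2 (0.019). With 1 library left out Gbp2 ran from -0.18 to 0.069, Gbp8 from -0.20 to 0.019, Irf1 from -0.38 to 0.13, Ifi213 from -0.17 to 0.082, Ifi44 from -0.15 to 0.14 and Phf11b from -0.38 to 0.044. The median difference of M1 and M0 over the members, 5.19, was 6.56 with a pseudocount of 0.1, and 4.93 to 5.63 with 1 library left out.

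With PBM, 32 rows passed an unadjusted p of 0.05 with a 2-fold change, 75 with a pseudocount of 0.1, and 27 (without M1 + PBM replicate 1) to 89 (without M1 + PBM replicate 2) with 1 library left out, or 69 without M1 replicate 2. At the unadjusted p alone 543 rows passed, against 1318 with no minimum FPKM, 233 at a mean FPKM of 5 or more, which leaves out Gbp8, and 988 with the replicate block. Leaving out 1 library gave 259 (without M1 + PBM replicate 1) to 1089 (without M1 replicate 2), with 312 without M1 replicate 1, 342 without M1 + PBM replicate 3 and 930 without M1 + PBM replicate 2. The adjusted p called 1 row in each case.

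Members at an unadjusted p of 0.05 numbered 1, 2 with the replicate block and 1 to 3 with 1 library left out (3 without M1 + PBM replicate 2), and their median ran from -0.33 (without M1 replicate 1) to -0.057 (without M1 + PBM replicate 3). The interferon list had 2 such genes, or 2 to 4 with 1 library left out (4 without M1 + PBM replicate 2). The partner list had 0, or 1 after median-of-ratios scaling, 1 with the block and 0 to 1 with 1 library left out. The block moved Gbp3, Ifi47, Gbp11 and Trim30c to an unadjusted p under 0.05 and changed no other call among the 22 named genes refitted. The causes of these shifts were not tested. With 3 libraries a group and an unknown number of fragments, an interval that spans 0 leaves both its size and its direction undetermined.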
